A study of Saccharomyces cerevisiae with 4 samples.

Results

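The *SEC* genes of *Saccharomyces cerevisiae* were first defined by mutants that cannot secrete proteins, and they encode much of the machinery that carries new proteins from the cytosol to the cell surface. Their transcript levels were compared between the wild type and *ccw12*Δ, a strain that lacks the cell wall mannoprotein Ccw12p. All genes were taken whose symbol in the platform annotation is SEC followed by digits. This gave 36 of the 5656 genes that have a probe set of their own, and where a gene had several the brightest was used. Of the 36 *SEC* genes, 34 were bright enough to be tested among 4532 genes. *SEC2* and *SEC8* stayed below the filter, a mean log2 signal of 6.11 over the 4 arrays.

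Proteins for the cell surface enter the endoplasmic reticulum (ER) through the Sec61 channel, lose their signal peptide and receive sugar chains. COPII-coated vesicles carry them to the Golgi, COPI-coated vesicles bring escaped proteins and membrane back, and secretory vesicles are finally tethered at the plasma membrane by the exocyst before SNARE proteins fuse them with it. In a budding cell this last traffic is aimed at the bud, where wall mannoproteins and wall-building enzymes are delivered.

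Each strain was measured on 2 Affymetrix Yeast Genome S98 arrays, and each array held labelled cRNA from a separate pool of RNA preparations. The wild type was SEY6210, a *MAT*α haploid with mutant *ura3*, *leu2*, *his3*, *trp1* and *lys2* alleles and a *suc2* deletion. The mutant was MEY12A, the same strain with *CCW12* replaced by *URA3* (*ccw12::URA3*), so the strains also differ in uracil prototrophy, and the mutant is a single strain. Both were grown in rich medium (YPD) with added adenine to an OD600 of 1. For wild type replicate 2 the description field names SEY6211, a *MAT***a** strain, although its title and strain field name SEY6210, and the source field of the mutants names a SEY6219 strain.

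The strain markers moved in the direction of the labels. *CCW12* had signals of 24314 and 24118 in the wild type and of 4260 and 3919 in *ccw12*Δ, and *URA3* had 3.9 and 6.7 against 59.5 and 54.2. The *CCW12* signals left in *ccw12*Δ were well above the array medians of 141 and 144, and *URA3* stayed below the filter level, a signal of 69, on all arrays. Whether the *CCW12* probes lie in the replaced part of the gene was not tested. Of the 4 α-cell markers, *MF(ALPHA)1*, *MF(ALPHA)2*, *STE3* and *SAG1* ranged from 1331 to 11687 on all arrays, while 4 of 5 **a**-cell markers (*STE2*, *BAR1*, *AGA2* and *MFA1*) ranged from 1.2 to 117 and *MFA2* from 205 to 271. On wild type replicate 2 these 5 markers had signals of 18.6, 1.2, 14.6, 82.8 and 205. Wild type replicate 1 stood apart from the other arrays. The SD of the log2 difference over all genes was 0.631 between the wild-type arrays and 0.400 between the *ccw12*Δ arrays. Against the *ccw12*Δ arrays it was 0.604 and 0.672 for wild type replicate 2 and 0.799 and 0.810 for wild type replicate 1. The 3' to 5' signal ratios of the 3 yeast control genes, which rise as RNA or cDNA gets shorter, were 9.82, 7.12 and 2.99 on wild type replicate 1, while the other 3 arrays gave ratios from 1.38 to 3.69.

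The *SEC* genes showed the same array apart. Wild type replicate 1 had the highest or the lowest of the 4 signals for 26 of the 34 tested *SEC* genes (76.5%), against 66.8% of all genes tested. The wild-type signals differed by more than 2-fold for 7 *SEC* genes (20.6%, against 9.97% of all genes) and the *ccw12*Δ signals for 0 (1.79% of all genes). Values without wild type replicate 1 are given for the genes whose sign depended on it and for some whose size did. The part of its RNA quality in those results was not tested.

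**Figure D1:**
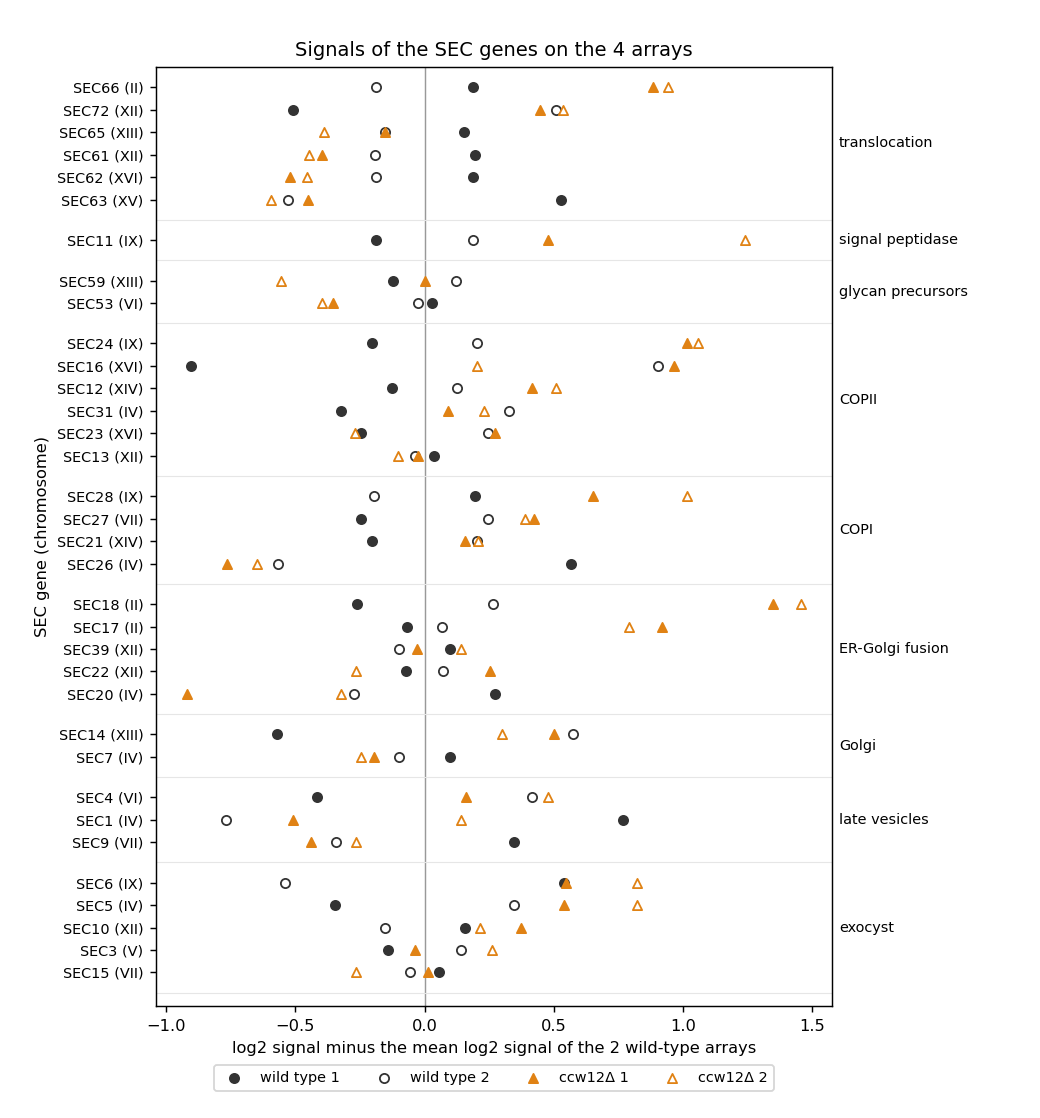
Each row is 1 of the 34 tested *SEC* genes with its chromosome, ordered by step, and each point is 1 array, plotted as log2 signal minus the mean log2 signal of the 2 wild-type arrays. Both *ccw12*Δ points lie right of both wild-type points for the 7 genes of chromosomes II and IX, with a near tie for *SEC6*. The wild-type points lie more than 1 log2 unit apart for 7 genes, *SEC16* and *SEC1* among them.

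Of the 34 *SEC* genes, 1 rose in *ccw12*Δ and 0 fell at an adjusted p of 0.05 with limma, a moderated linear model fitted over all 4532 genes. The gene that rose was *SEC18*. Among all genes, 240 rose (5.30%) and 27 fell (0.596%), so 1 of 34 was no larger a share than the background. At an unadjusted p of 0.05, limma gave 6 *SEC* genes higher (18.1% of all genes) and 0 lower (3.95%). By the fold rule, a mean log2 ratio of at least 1 with all 4 mutant to wild type ratios in 1 direction, *SEC18* and *SEC24* were higher and 0 were lower, against 10.4% and 2.03% of all genes. Signals that did not overlap between the strains were found for 11 *SEC* genes with *ccw12*Δ higher (37.8% of all genes) and for 7 with *ccw12*Δ lower (15.5%). The median log2 fold change of the 34 genes was 0.14, and that of all genes was 0.18. Leaving out single arrays moved the counts of risen and fallen *SEC* genes widely, and so it did the counts over all genes. These fits leave 1 array in a strain, so their counts cannot be read as numbers of changed genes.

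The *SEC* genes differed by the chromosome they lie on. Chromosomes II, IX and X hold 7 of them, 3 on II (*SEC17*, *SEC18* and *SEC66*) and 4 on IX (*SEC6*, *SEC11*, *SEC24* and *SEC28*), with none on X. All 7 had log2 fold changes above 0, from 0.68 to 1.40 with a median of 0.86, and for all 7 both *ccw12*Δ signals exceeded both wild-type signals. For *SEC6* this was nearly a tie, with a lowest ratio of 1.006. Over all 783 tested genes of chromosomes II, IX and X, the median was 0.97, 83.5% had non-overlapping higher signals, 47.6% passed the fold rule as higher and 25.4% rose with limma. Over the 482 tested genes of chromosomes II and IX alone, the median was 0.92. Of these, 403 had non-overlapping higher signals, 208 passed the fold rule as higher and 105 rose with limma. The 7 *SEC* genes stood near the level of these chromosomes, with 7 of 7 not overlapping, 2 passing the fold rule and 1 called. The 6 genes with an unadjusted p under 0.05 were all among these 7, and 71.0% of the genes of chromosomes II, IX and X were higher at that level. The median log2 fold change of the 7 was 1.03 without wild type replicate 1 and 0.92 without wild type replicate 2. It was 1.02 without *ccw12*Δ replicate 1 and 0.885 without *ccw12*Δ replicate 2.

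The 27 tested *SEC* genes of the other chromosomes had a median log2 fold change of -0.01, with 13 above and 14 below 0. Over all 3749 tested genes of these chromosomes the median was 0.09, and 2190 were above 0. None of the 27 rose or fell with limma, where 1.09% of these genes rose, and 0 had an unadjusted p under 0.05, against 11.5% of these genes in either direction. Their signals did not overlap in 4 cases with *ccw12*Δ higher (28.3% of the genes of these chromosomes) and in 7 with *ccw12*Δ lower (18.0%). Their log2 fold changes reached from -0.71 in *SEC26* to 0.68 in *SEC5*. Measured against the mean of the wild-type arrays, the median log2 signal of the 7 genes was 0.89 higher on *ccw12*Δ replicate 1 and 1.02 higher on replicate 2, and that of the 27 was 0.002 higher on replicate 1 and fell by 0.10 on replicate 2. In a culture of cells, a higher level in each cell and a larger share of cells that express a gene cannot be told apart.

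**Figure D2:**
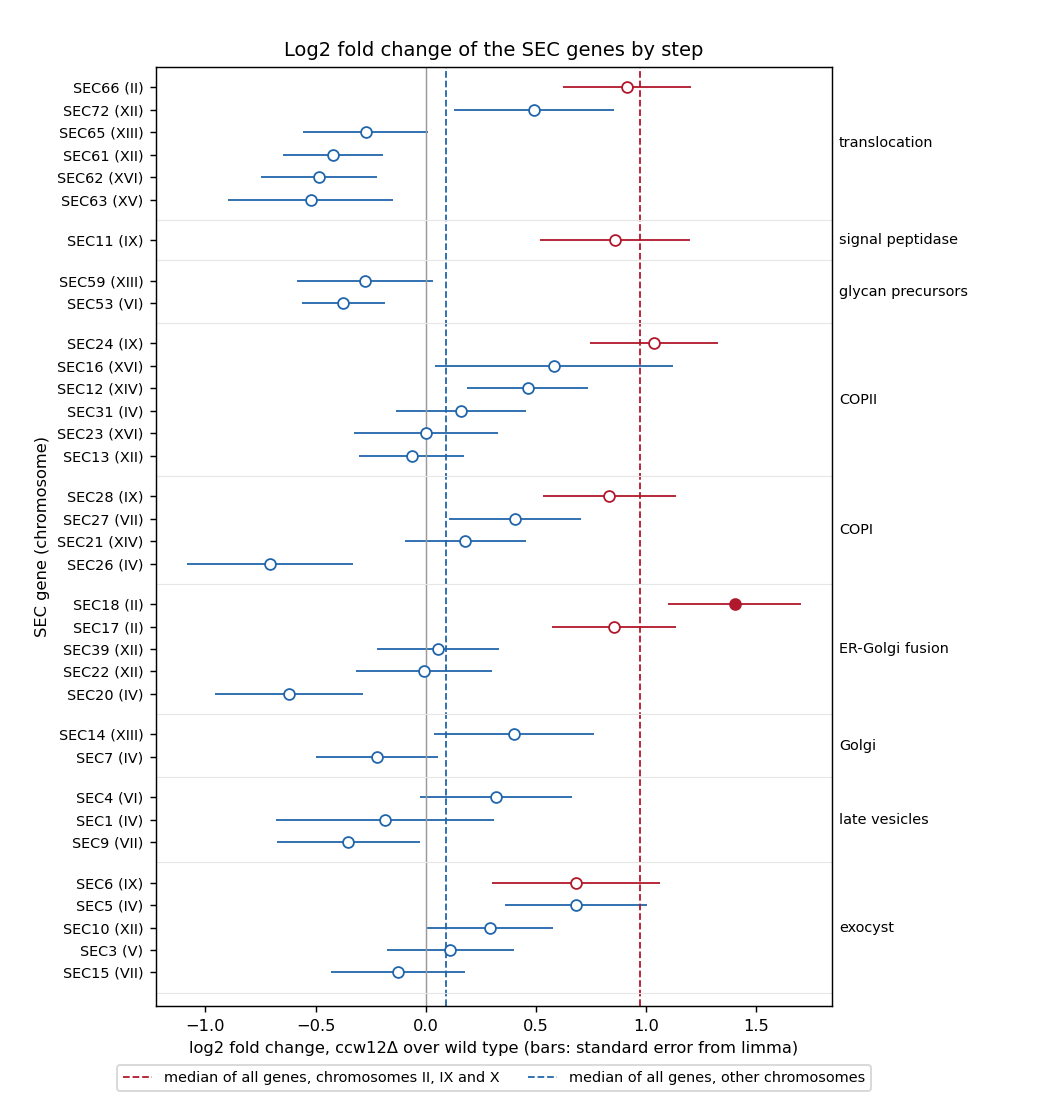
Points give the log2 fold change of *ccw12*Δ over the wild type for each tested *SEC* gene with its standard error from limma, red for chromosomes II and IX and blue for the others, and the filled point passed the test. The red points lie between 0.68 and 1.40 near the dashed median of all genes of chromosomes II, IX and X (0.97), in each of the steps that holds one.

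At the first step, entry into the ER, 5 of the 6 tested genes lie outside chromosomes II, IX and X. *SEC66*, which encodes a subunit of the Sec63 complex that serves post-translational translocation, lies on chromosome II. It had signals of 503 and 387 in the wild type and 814 and 847 in *ccw12*Δ, so that the strains did not overlap. With 2 arrays per strain, the log2 fold change was 0.91 ± 0.29 (SE, adjusted p = 0.104). Without wild type replicate 1 it was 1.10, and without wild type replicate 2 it was 0.72. Without *ccw12*Δ replicate 1 or 2 it was 0.942 or 0.885.

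The other 5 translocation genes had a median log2 fold change of -0.42, and none passed the test. The values of all 5 were smaller in size without wild type replicate 1. *SEC61*, the gene of the channel subunit, had signals of 7172 and 5485 in the wild type and 4769 and 4598 in *ccw12*Δ, a log2 fold change of -0.42 ± 0.23 (SE, adjusted p = 0.327). *SEC62*, whose product joins the Sec63 complex at the channel, had 3061 and 2362 against 1877 and 1964, a log2 fold change of -0.49 ± 0.26 (SE, adjusted p = 0.332). For both genes each *ccw12*Δ signal was below each wild-type signal, and the same held for *SEC65*, the gene of a subunit of the signal recognition particle (log2 fold change -0.27). Without wild type replicate 1, *SEC61* came to -0.23, *SEC62* to -0.30 and *SEC65* to -0.12. The lowest value of the step belonged to *SEC63*, which encodes the membrane partner of the chaperone Kar2p. Its signals were 663 and 319 in the wild type and 336 and 304 in *ccw12*Δ, a log2 fold change of -0.52 ± 0.37 (SE, adjusted p = 0.460). This value rested on wild type replicate 1 alone, since without that array it was 0.006. *SEC72*, another subunit of the Sec63 complex, was the only one of the 5 above 0, with 143 and 290 against 277 and 295, where again wild type replicate 1 stood off. Its log2 fold change of 0.49 became -0.02 without that array.

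The signal peptide is cut off by signal peptidase, whose catalytic subunit is encoded by *SEC11* on chromosome IX. *SEC11* had signals of 651 and 843 in the wild type and 1032 and 1747 in *ccw12*Δ. The strains did not overlap, but the *ccw12*Δ arrays lay further apart than the wild-type arrays. The log2 fold change was 0.86 ± 0.34 (SE, adjusted p = 0.180), and single ratios ran from 1.22 to 2.68. For the sugar chains, *SEC53* encodes phosphomannomutase, which makes the mannose precursor, and *SEC59* encodes dolichol kinase, which supplies the lipid carrier. *SEC53* had 9249 and 8909 in the wild type and 7102 and 6899 in *ccw12*Δ, a log2 fold change of -0.38 ± 0.19 (SE, adjusted p = 0.289) with 4 ratios close together, from 0.746 to 0.797. *SEC59* had 168 and 199 against 183 and 125, with overlapping strains and a log2 fold change of -0.28 ± 0.31 (SE, adjusted p = 0.651).

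COPII coats bud from the ER when the exchange factor Sec12p loads the GTPase Sar1p, which then recruits the inner coat of Sec23p and Sec24p and the outer cage of Sec13p and Sec31p. *SEC24*, the gene of the cargo-binding coat subunit, lies on chromosome IX and had the highest value of this step. Its signals were 612 and 810 in the wild type and 1423 and 1466 in *ccw12*Δ. The log2 fold change was 1.04 ± 0.29 (SE), and its adjusted p of 0.0732 missed the threshold. All 4 ratios were between 1.76 and 2.40. Without wild type replicate 1 the log2 fold change was 0.83 and without wild type replicate 2 it was 1.24. It was 1.059 without *ccw12*Δ replicate 1 and 1.015 without *ccw12*Δ replicate 2. With the replicate number as a block, limma gave an adjusted p of 0.0403.

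The other 5 COPII genes had a median log2 fold change of 0.16, and none passed the test. *SEC13* was the lowest, with 2908 and 2762 in the wild type and 2787 and 2639 in *ccw12*Δ, a log2 fold change of -0.06 ± 0.24 (SE, adjusted p = 0.906). *SEC23*, the gene of the coat subunit that pairs with Sec24p, had 521 and 733 against 746 and 513, a log2 fold change of 0.00 with a standard error of 0.33. The strains overlapped for these genes and for *SEC31* (log2 fold change 0.16). Without wild type replicate 1, *SEC23* came to -0.24 and *SEC31* to -0.16. By contrast, *SEC12*, the gene of the exchange factor, had 195 and 233 against 284 and 304, without overlap and with a log2 fold change of 0.46 ± 0.28 (SE, adjusted p = 0.373). The genes of the paired subunits Sec23p and Sec24p, on chromosomes XVI and IX, thus had log2 fold changes of 0.00 and 1.04.

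*SEC16*, which encodes the scaffold of ER exit sites, was the only *SEC* gene with several probe sets, 9 in all. The brightest had 121 and 422 in the wild type and 440 and 259 in *ccw12*Δ, so that the wild-type arrays spanned nearly the whole range. Its log2 fold change was 0.58 ± 0.54 (SE, adjusted p = 0.575), with -0.32 when wild type replicate 1 was left out and 1.49 when wild type replicate 2 was left out. The next brightest probe set had 276 and 198 against 257 and 316, a log2 fold change of 0.29. Over the 9 probe sets the values ran from -0.62 to 2.68, both ends from probe sets with signals of 34.1 or less on every array.

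COPI coats return membrane and proteins from the Golgi, and 4 *SEC* genes encode coat subunits. *SEC28*, the gene of the ε subunit, lies on chromosome IX and had 740 and 565 in the wild type and 1016 and 1308 in *ccw12*Δ. The strains did not overlap, and the log2 fold change was 0.83 ± 0.30 (SE, adjusted p = 0.149). Without wild type replicate 1 it was 1.03, without wild type replicate 2 it was 0.64, and without *ccw12*Δ replicate 1 or 2 it was 1.02 or 0.65. *SEC26*, the gene of the β subunit on chromosome IV, had the lowest log2 fold change of all *SEC* genes. Its signals were 3050 and 1388 against 1210 and 1313, a log2 fold change of -0.71 ± 0.38 (SE, adjusted p = 0.324). Wild type replicate 1 was the array that stood off, and without it the log2 fold change was -0.14. *SEC27*, the gene of the β′ subunit, had 468 and 657 against 743 and 725 without overlap (log2 fold change 0.41, and 0.16 without wild type replicate 1). *SEC21*, the gene of the γ subunit, overlapped between the strains (0.18, and -0.02 without that array).

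The members that prime SNAREs for fusion or act in membrane fusion between ER and Golgi included the only called gene. *SEC18* encodes the ATPase NSF of yeast, which takes spent SNARE complexes apart, and *SEC17* encodes its adaptor α-SNAP. Both lie on chromosome II. *SEC18* had signals of 234 and 338 in the wild type and 716 and 772 in *ccw12*Δ. Every ratio was above 2, from 2.12 to 3.29, and the log2 fold change was 1.40 ± 0.30 (SE, adjusted p = 0.0357 with limma). *SEC17* had 555 and 611 against 1101 and 1006, with ratios from 1.65 to 1.98, a log2 fold change of 0.85 ± 0.28 (SE, adjusted p = 0.114). The log2 fold change of *SEC18* was 1.14 without wild type replicate 1 and 1.67 without wild type replicate 2. It was 1.46 without *ccw12*Δ replicate 1 and 1.35 without *ccw12*Δ replicate 2. Whether the call would hold cannot be read from these fits, since the spread within a strain then came from the other strain alone.

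*SEC20* and *SEC22* encode SNAREs of the ER and Golgi, and *SEC39* encodes a subunit of the tether that receives Golgi vesicles at the ER. *SEC22* had 135 and 149 in the wild type and 169 and 118 in *ccw12*Δ, and *SEC39* had 212 and 185 against 194 and 219. For both, the strains overlapped, with log2 fold changes of -0.01 and 0.06. *SEC20* had 663 and 453 against 290 and 438, which did not overlap, a log2 fold change of -0.62 ± 0.34 (SE, adjusted p = 0.330). Without wild type replicate 1 it was -0.35. The ratio of *ccw12*Δ replicate 2 to wild type replicate 2 was 0.967, the nearest to 1 of the 4.

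Traffic through and beyond the Golgi gave no called gene. *SEC7* encodes the exchange factor that activates Arf GTPases, and *SEC14* encodes a phosphatidylinositol transfer protein. *SEC14* had 1941 and 4290 in the wild type and 4081 and 3552 in *ccw12*Δ, a log2 fold change of 0.40 ± 0.36 (SE, adjusted p = 0.564) that became -0.17 without wild type replicate 1. *SEC7* had 1135 and 991 against 926 and 893, a log2 fold change of -0.22 ± 0.28 (SE, adjusted p = 0.687), where the strains did not overlap.

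On secretory vesicles, *SEC4* encodes the Rab GTPase, *SEC2* its exchange factor, *SEC9* a plasma membrane SNARE and *SEC1* the protein that binds the assembled SNAREs. *SEC4* was the highest of these, with 634 and 1127 in the wild type and 944 and 1177 in *ccw12*Δ, a log2 fold change of 0.32 ± 0.35 (SE, adjusted p = 0.639) that became -0.10 without wild type replicate 1. *SEC9* was the lowest, with 213 and 132 against 124 and 140, a log2 fold change of -0.35 ± 0.33 (SE, adjusted p = 0.575) that became -0.007 without wild type replicate 1. *SEC1* had 212 and 73.0 against 87.3 and 137, with the wild-type arrays further apart than the *ccw12*Δ arrays, and its log2 fold change of -0.19 became 0.58 without wild type replicate 1. The strains overlapped for all 3, and *SEC2*, too dim to test, had 60.6 and 43.8 against 78.9 and 50.7.

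The exocyst, which holds secretory vesicles at the bud tip before fusion, had 5 tested *SEC* subunits and none that passed. *SEC6* on chromosome IX had 466 and 221 in the wild type and 469 and 567 in *ccw12*Δ, a log2 fold change of 0.68 ± 0.38 (SE, adjusted p = 0.344). Wild type replicate 1 was level with the lower *ccw12*Δ array, and without it the log2 fold change was 1.22, while without wild type replicate 2 it was 0.15. *SEC5* on chromosome IV had 116 and 187 against 214 and 261, without overlap. Its log2 fold change of 0.68 ± 0.32 (SE, adjusted p = 0.267) was the largest among *SEC* genes outside chromosomes II and IX. Both its size and its rank depended on wild type replicate 1. Without that array *SEC5* came to 0.34, and *SEC1* (0.58) and *SEC10* (0.45) were higher. *SEC15* was the lowest, with 115 and 106 against 111 and 91.9, a log2 fold change of -0.13 ± 0.30 (SE, adjusted p = 0.844). *SEC10* (0.29, without overlap) and *SEC3* (0.11, with overlap, and -0.03 without wild type replicate 1) lay between, and *SEC8*, too dim to test, had 46.5 and 58.5 against 60.1 and 64.1.

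Within a step, the gene on chromosome II or IX was set against the mean of the *SEC* genes of the same step on other chromosomes, as a difference of log2 fold changes. The difference was 1.16 for *SEC66* against 5 translocation genes, 0.81 for *SEC24* against 5 COPII genes and 0.88 for *SEC28* against 3 COPI genes. It was 1.05 for *SEC17* and 1.59 for *SEC18* against 3 fusion genes, and 0.44 for *SEC6* against 4 exocyst genes. In each case the gene exceeded every partner taken alone, by 0.42 or more except for *SEC6*, which exceeded *SEC5* by 0.002. Chromosomes II and IX were chosen with earlier results of these data known, so a positive difference was likely from the start. The median log2 fold change was 0.92 over their 482 tested genes, against 0.09 over the 3749 genes outside II, IX and X. This comparison therefore cannot separate a gene from the level of its chromosome. The differences did not overlap between the strains on the single arrays, except for *SEC6*. An exact two-sided permutation test of 2 against 2 arrays cannot go below p = 0.333, and no model of these differences was fitted.

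Nearby genes were measured in the same way, as the 5 tested genes on each side of a *SEC* gene along its chromosome. The median log2 fold change of these 10 neighbours ran from 0.59 to 0.86 for the 7 *SEC* genes of chromosomes II and IX. *SEC18* exceeded 9 of its 10 neighbours, whose median was 0.71, and lay at the 83.4th percentile of chromosome II. *SEC24*, at the 60.9th percentile of chromosome IX, exceeded 8, while *SEC6*, at the 31.8th, exceeded 2. Of the other 4, *SEC66*, *SEC11*, *SEC28* and *SEC17* lay between the 43.8th and the 47.7th percentile of their chromosomes, with neighbour medians of 0.78, 0.73, 0.76 and 0.59. Outside chromosomes II and IX, *SEC5* stood at the 93.5th percentile of chromosome IV with a neighbour median of -0.20, and *SEC26* at the 4.59th with one of 0.06. Across the 34 genes the log2 fold change and the neighbour median had a Pearson r of 0.651 (Spearman rho 0.539), against 0.152 (rho 0.097) across the 27 genes of the other chromosomes. Over all genes tested r was 0.479 (rho 0.367), and over all genes of the other chromosomes it was 0.075 (rho 0.082). These are correlations across genes that share the same 4 arrays, and genes are not independent replicates.

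**Figure D3:**
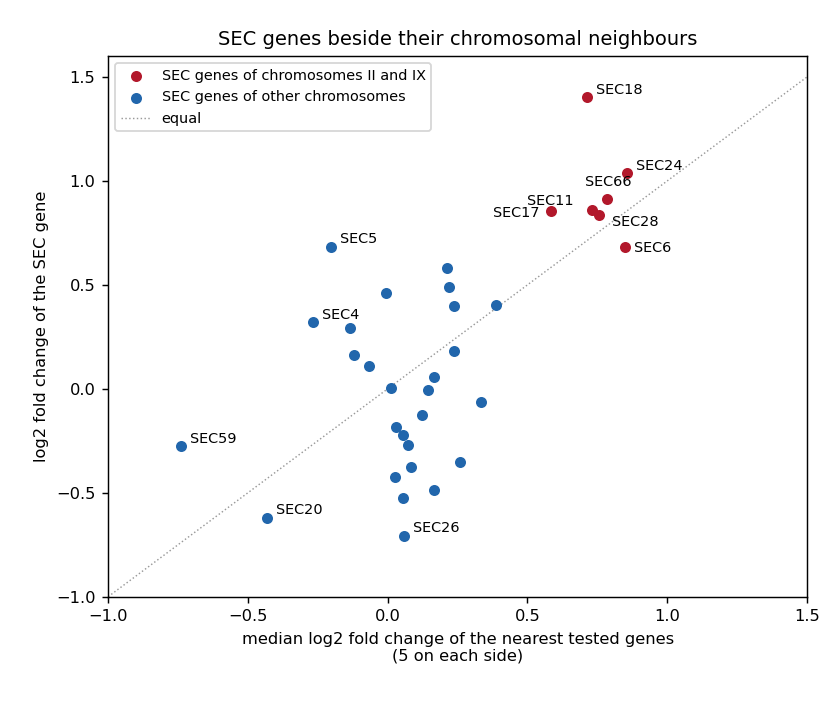
The log2 fold change of each tested *SEC* gene (y axis) is plotted against the median log2 fold change of its 10 nearest tested genes (x axis), and the dotted line marks equal values. The genes of chromosomes II and IX sit at neighbour medians between 0.59 and 0.86, where *SEC18* lies furthest above the line, and the genes of other chromosomes sit further left.

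When the median shift of each chromosome was subtracted on each array, 0 of the 34 *SEC* genes passed the test. *SEC18* then had a log2 fold change of 0.48 (adjusted p = 0.474) and *SEC24* of 0.16 (adjusted p = 0.829). The other 5 genes of chromosomes II and IX came to lie between -0.19 (*SEC6*) and -0.01 (*SEC66*), and the median of the 7 was -0.02. On the other chromosomes, centring left *SEC5* highest at 0.62 (adjusted p = 0.433). Of the 34 genes after centring, only *SEC62* was under 0.05 without adjustment, with a log2 fold change of -0.62 (adjusted p = 0.388 with limma). Of all 4532 genes, 575 were under 0.05 in the same way. After centring, *ccw12*Δ signals lay above both wild-type signals for 4 *SEC* genes (23.5% of all genes) and below both for 10 (23.3%).

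**Figure D4:**
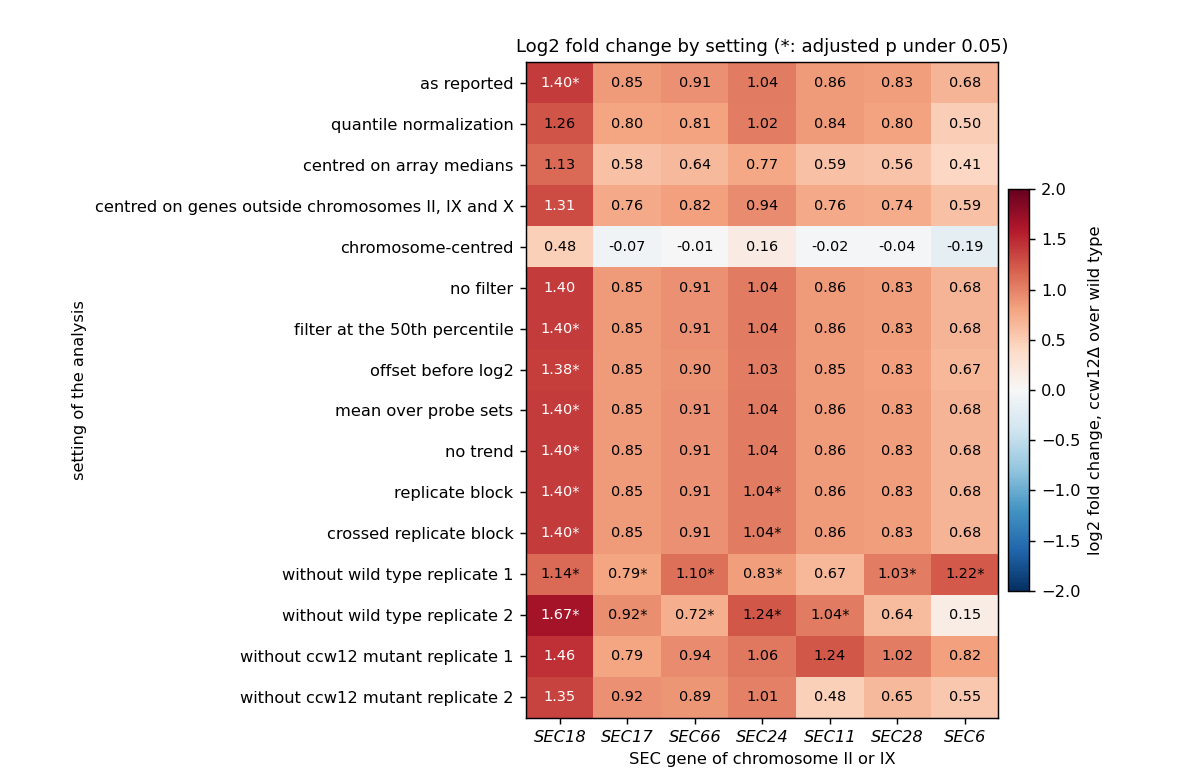
Each cell gives the log2 fold change of *ccw12*Δ over the wild type for a *SEC* gene of chromosome II or IX (columns) under 1 setting of the analysis (rows), coloured from blue (below 0) to red (above 0), with a star where limma's adjusted p was under 0.05. *SEC18* stays above 0 in every setting, from 0.48 to 1.67, and only centring on each chromosome brings 5 of the 7 genes just below 0. Stars in the rows with an array left out rest on the spread within 1 strain and cannot be read as calls.

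Genes of the same steps that carry other names were examined as a list of 90, of which 89 had a probe set and 82 were tested. Of the 82, 2 rose (5.30% of all genes) and 0 fell (0.596%) with limma. At an unadjusted p under 0.05, 8 were higher (18.1% of all genes) and 0 lower (3.95%). By the fold rule 5 were higher (10.4% of all genes). The median log2 fold change was 0.14, and as for the *SEC* genes it differed by chromosome, with 0.89 for the 12 on chromosomes II, IX and X and 0.09 for the other 70. Both genes that rose act between ER and Golgi and lie on chromosomes IX and II. Of all genes of chromosomes II, IX and X, 25.4% rose. *BET1*, which encodes a SNARE of ER-derived vesicles, had signals of 123 and 169 in the wild type and 370.0 and 457 in *ccw12*Δ, a log2 fold change of 1.51 ± 0.30 (SE, adjusted p = 0.0312). *TRS20*, the gene of a subunit of the TRAPP tethering complex, had 280.1 and 274 against 554 and 815, a log2 fold change of 1.28 ± 0.31 (SE, adjusted p = 0.0466).

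Of 14 tethers and SNAREs between ER and Golgi, 13 were above 0, as were 2914 of all 4532 genes tested. By list they had the highest median, 0.34, and 0.29 over the 12 outside chromosomes II, IX and X. The largest of these 12, named after its values were seen, was *YKT6*, a SNARE gene on chromosome XI, with 795 and 908 against 1574 and 1767. Its log2 fold change was 0.97 ± 0.28 (SE, adjusted p = 0.0750). Among 17 translocation and signal peptide genes the median was 0.00, with 9 above 0. The medians were 0.08 over 17 COPII and cargo receptor genes, 0.15 over 15 COPI and retrograde genes, 0.07 over 6 genes of the COG tether of the Golgi and 0.14 over 13 genes of the exocyst and plasma membrane fusion, and none of these genes passed the test.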

How the data were processed

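Intensity values are those deposited by the authors, who scanned 4 single-colour arrays and made 1 linear signal per probe set with the Affymetrix operating software. The submitters' processing notes name MAS5, without a version. Of 9335 probe sets, 60 were controls, 6504 named 1 gene and 328 named several and were not used. A floor of 0.1 was set for 19 signals before log2. Chromosomes came from the R64 RefSeq gene table. Dim genes, with mean log2 signals below 6.11 (the 25th percentile), were not tested. The test was lmFit and eBayes with a trend from limma 3.58.1 (R 4.3.3), with Benjamini-Hochberg adjustment over 4532 genes at 0.05, and the calculation was tested on simulated data. The fold rule follows the study's methods without their detection and change calls. The number of arrays limits the precision. The 2 arrays of a strain are separate pools of RNA preparations. The p-values measure only the spread between such arrays, which limma estimates in part from other genes of similar signal. Figures used matplotlib 3.10.9 (Python 3.11.15).

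The *SEC* genes, the steps, the partner lists and the choice of chromosomes II, IX and X were made with earlier results of these data known. Genes described in full are the *SEC* genes of these chromosomes, those that passed the test, the highest and lowest of each step, and *SEC16*, added after its values were seen. Of the partners, those that passed are named. Marker genes of α and **a** cells were checked. Alternatives were quantile normalization, 3 centrings (array medians, medians of the remaining chromosomes without II, IX and X, and medians of each chromosome), dropping the filter or raising it to the 50th percentile, adding 7.2 before log2, the mean over probe sets, no trend, a replicate block, and each array left out in turn. A replicate block with crossed numbers was added after seeing the data.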

Additional observations from a re-analysis of the deposited data

How the results depend on the processing

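With 2 arrays per strain and wild type replicate 1 apart, counts of calls moved with most choices, and the cause was not tested. The count of *SEC* genes higher in *ccw12*Δ, 1 as reported, was 0 with quantile normalization, with each array centred on its median or on the remaining chromosomes (all but II, IX and X), with each chromosome centred, and without a filter. It was 1 with the filter at the 50th percentile, the offset, the mean over probe sets or no trend, and 0 to 10 when single arrays were left out, where a lone array was assumed to vary like the other strain. Fallen *SEC* genes, 0 as reported, were 0 in all settings that kept every array. Their count rose without wild type replicate 2, as the count over all genes did. The fold rule gave 1 gene in place of 2 with centring on the array medians or on the remaining chromosomes, 0 with each chromosome centred, and 2 to 6 with arrays left out.

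The median log2 fold change of the 7 *SEC* genes of chromosomes II and IX, 0.86, became 0.59 with centring on array medians, 0.76 with centring on the remaining chromosomes and -0.019 with each chromosome centred, and 0.88 to 1.03 with arrays left out. That of the 27 others, -0.01, became -0.28, -0.10 and -0.14 in the same order, -0.17 with quantile normalization, and -0.10 to 0.002 with arrays left out. These scalings move the median of all genes from 0.18 to -0.09, 0.09, 0.00 and, for quantile normalization, 0.04. *SEC18* lost its call in limma with quantile normalization (adjusted p = 0.0684), centring on array medians (0.103), on the remaining chromosomes (0.0561) or on each chromosome (0.474), and without a filter (0.0736). Over all genes, 240 higher and 27 lower calls became 95 and 22 with quantile normalization, 29 and 14 with centring on array medians, 72 and 15 with centring on the remaining chromosomes, 11 and 16 with each chromosome centred, 33 and 6 without a filter, and 76 to 1433 calls in all with arrays left out.

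Centring each chromosome turned *SEC66* (-0.012), *SEC11* (-0.019), *SEC28* (-0.042), *SEC17* (-0.071) and *SEC6* (-0.19) below 0, and quantile normalization turned *SEC13* to 0.023. Leaving out single arrays turned the sign of 14 of the 27 *SEC* genes of the other chromosomes and of 0 of the 7. Among those described in full, log2 fold changes ran from -0.32 to 1.49 for *SEC16*, -0.17 to 0.97 for *SEC14*, -0.10 to 0.73 for *SEC4*, -1.05 to 0.006 for *SEC63*, -0.26 to 0.012 for *SEC15* and -0.55 to 0.002 for *SEC59*. The dimmest probe set of *SEC16* taken alone gave -0.62.

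The arrays share only replicate numbers, and the deviations of same-numbered arrays had a Pearson r of -0.139 over all genes. With the replicate block 2 *SEC* genes (*SEC18* and *SEC24*) rose and 625 genes were called. With the numbers crossed, chosen after seeing the data, 2 *SEC* genes rose and 625 genes were called.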
